A study of Homo sapiens with 18 samples.

Results

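Small RNAs were compared between cells lacking ATG7 and wild-type cells. Both are HEK293T, a human embryonic kidney line. The comparison took the 3 ATG7-/- and the 3 wild-type cell libraries, 6 of the 18 libraries in the study, and every small RNA feature in the deposited table. Of 2462 features, 853 reached 10 normalised reads in at least 3 of the 9 cell libraries and were tested. The ATG7-/- cells are clone F2 and the ATG12-/- cells are clone D9. Each knockout is thus 1 clone, and a difference from wild-type cells may belong to the clone. The ATG12-/- libraries serve to set a difference against, and they share in the filter and in the estimate of spread behind each limma p-value. Cells of all 3 genotypes were grown in DMEM with 10% FBS and then kept without serum for 24 h before total RNA was taken, so every value below describes starved cells. No treatment differed between them. The other libraries hold RNA of extracellular vesicles from the same 3 genotypes. The labels call the 3 libraries of a group biological replicates and do not say how the cultures were separated, so p-values measure the spread between these libraries.

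ATG7 is the E1-like enzyme that activates the ubiquitin-like proteins LC3 and ATG12, and through them drives the attachment of LC3 to membrane lipids, a step that autophagy and some routes of vesicle loading share. ATG12 acts in the same conjugation chain, joined to ATG5. The small RNAs measured are of several kinds. MicroRNAs pair through their seed with messenger RNAs and repress them. C/D box and H/ACA box small nucleolar RNAs (snoRNAs) guide chemical changes of ribosomal RNA, and scaRNAs do the same for spliceosomal RNAs. tRNAs, Y RNAs and vault RNAs are short transcripts made by RNA polymerase III, and the vault RNA VTRNA1-1 is known to bind the autophagy receptor p62.

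The cell libraries of the 2 genotypes held 1188388 to 1257734 reads assigned to features for ATG7-/- and 1396337 to 1606102 for wild type, so the depths of the groups did not overlap; the part of depth in the results was not tested. A normalised read is a deposited value, which is a read count divided by 1 size factor per library, and 1 read was worth 0.637 to 0.824 of them in these 6 libraries. ATG7-/- replicates differed more among themselves than wild-type replicates did, with a median SD across features of 0.261 among ATG7-/- and 0.155 among wild-type libraries on the log2 scale. All 9 microRNAs listed as typical of HEK293T were detected. They summed to 3319 to 3975 normalised reads in ATG7-/- cells and 2107 to 2521 in wild-type cells. Of the 9, miR-17-5p, miR-18a-5p, miR-19b-3p, miR-20a-5p and miR-92a-3p belong to the miR-17-92 cluster. That cluster is described below, so the difference in sums is not separate from its changes. miR-92a-3p alone had 2074 to 2257 in ATG7-/- cells and 1245 to 1486 in wild-type cells. The 6 microRNAs of serum, blood or liver summed to 4.91 to 11.4 in ATG7-/- cells and 1.27 to 5.94 in wild-type cells, and 3 of the 6 were at 0 in all libraries of each group. The ATG7 messenger RNA is not measured by these libraries, so the knockout label cannot be checked here. In bulk samples, fewer cells of a type and less RNA per cell cannot be told apart.

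In ATG7-/- cells 72 features were higher than in wild-type cells and 71 were lower. These are 8.44% and 8.32% of the 853 tested, and together 143 features or 16.8%. A call is an adjusted p under 0.05 in limma's moderated test on log2 (normalised reads + 1). The groups did not overlap for 300 features, 35.2% of those tested, of which 124 (14.5%) were higher and 176 (20.6%) lower. All 72 higher calls and 69 of the 71 lower calls were among them. The 2 exceptions are U103 and U103B, names with the same values, which had 2081, 1074 and 1047 normalised reads in ATG7-/- cells, against 2067, 2055 and 2339 in wild-type cells; that call (-0.69) was lost without ATG7-/- replicate 2 or 3 (-0.54 and -0.52) and without wild-type replicate 1, 2 or 3 (-0.72, -0.73 and -0.63). It was also lost with edgeR (adjusted p = 0.0724), in the fit of only the 6 libraries compared (limma adjusted p = 0.0572), and with no filter or a minimum of 50 (limma adjusted p = 0.0568 in both cases). The higher calls were mostly microRNAs and a few families of tRNA genes, and the lower calls mostly other tRNA genes and some C/D box snoRNAs. The counts were smaller when any 1 wild-type library was left out. Without wild-type replicate 1, 2 or 3 the calls numbered 46, 40 and 40 higher and 42, 34 and 37 lower. Fitted on only the 6 libraries compared, without the ATG12-/- cells, 62 of 836 tested features were higher and 54 lower.

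**Figure D1:**
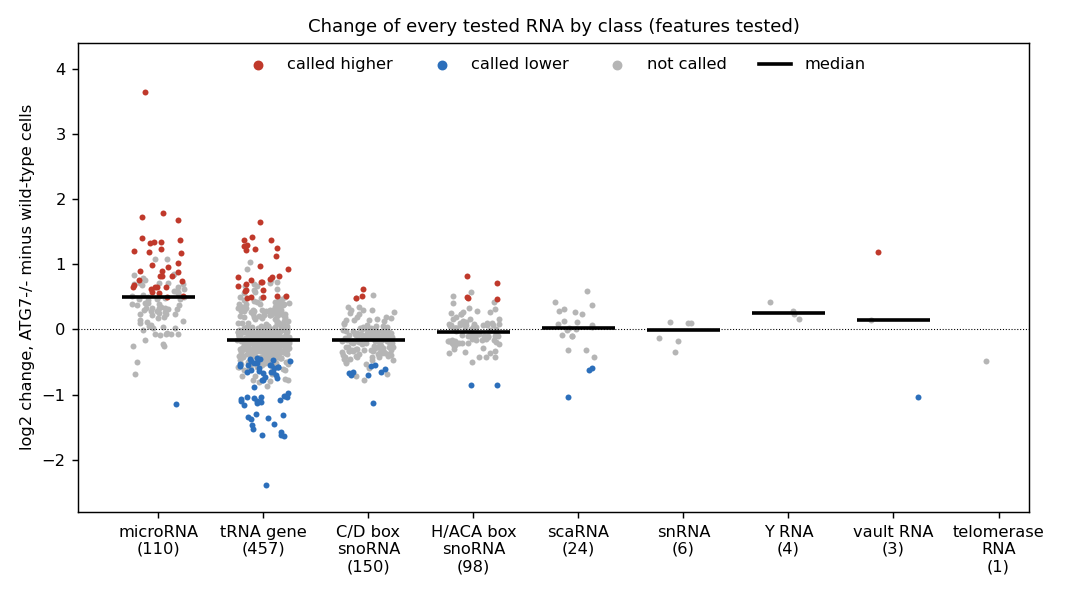
Log2 change of every tested feature in ATG7-/- cells relative to wild-type cells, by RNA class; each point is 1 feature, red or blue where called higher or lower by limma and grey otherwise, and the bar is the class median. The 110 microRNAs centre on 0.50, while the medians of tRNA genes and of C/D box snoRNAs are both -0.17.

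MicroRNAs stood higher in ATG7-/- cells. Of 110 tested, 34 were called higher and 1 lower, against 8.44% and 8.32% over all features, and 96 had a change above 0. Their median log2 change was 0.50, against -0.09 over all 853 features, and their range was -1.15 to 3.64. The top of that range is miR-181a-5p, which was at or near 0 in wild-type cells, so its size depends on the pseudocount. Of the 110, the groups did not overlap for 50 that were higher and 2 that were lower, against 14.5% and 20.6% over all features. Calls came at every level of abundance: 9 of 54 microRNAs that averaged under 25 normalised reads were higher, as were 14 of 35 between 25 and 100, 7 of 12 between 100 and 500 and 4 of 9 above 500. The count was 21 without wild-type replicate 2 and 22 without ATG7-/- replicate 3. These changes are relative to the scaling. With TMM factors taken from the microRNAs, which by construction centre that class near 0, 10 microRNAs were higher and 12 lower, and the median of all features moved to -0.60.

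As a share of all reads assigned to features, microRNAs took 2.77% ± 0.153 in ATG7-/- cells and 2.15% ± 0.153 in wild-type cells (mean ± SD of 3 libraries in each group, as for all shares and means that follow). One entry, miR-6724-5p, lies in the ribosomal RNA repeats and did not differ beyond the replicate spread (8038 ± 1151 normalised reads in ATG7-/- cells and 7917 ± 710 in wild-type cells, adjusted p = 0.953). Without it the share was 1.93% ± 0.186 in ATG7-/- cells and 1.37% ± 0.102 in wild-type cells. The 2 groups do not overlap in either share. The exact permutation p is 0.1 for each, two-sided, which is the smallest that 3 against 3 libraries can give.

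The microRNAs printed here are those of the largest families among the higher calls. Capitals mark the seed, bases 2 to 8 from the 5′ end, and the sequences are RefSeq's (GRCh38.p14). RefSeq gave a mature sequence for 98 of the 110 tested microRNAs. These share 81 seeds, of which 10 occur in more than 1 tested microRNA.

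The first set is let-7, all members that were tested, to show that called and uncalled members have the same seed.
let-7a-5p: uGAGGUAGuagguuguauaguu
let-7b-5p: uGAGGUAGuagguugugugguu
let-7c-5p: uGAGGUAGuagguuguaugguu
let-7e-5p: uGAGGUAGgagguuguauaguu
let-7f-5p: uGAGGUAGuagauuguauaguu
let-7g-5p: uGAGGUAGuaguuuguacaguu

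The second set is from the miR-17-92 cluster on chromosome 13 and its paralogs, in the order of their 3 seeds.
miR-17-5p: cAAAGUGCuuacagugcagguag
miR-93-5p: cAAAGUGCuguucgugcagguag
miR-106a-5p: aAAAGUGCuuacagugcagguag
miR-19a-3p: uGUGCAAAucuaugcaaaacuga
miR-19b-3p: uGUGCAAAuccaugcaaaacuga
miR-25-3p: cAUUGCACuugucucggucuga
miR-92a-3p: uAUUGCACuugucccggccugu

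The last is miR-126-5p, which is processed from an intron of EGFL7 and had the largest change among called microRNAs averaging at least 50 normalised reads in ATG7-/- cells.
miR-126-5p: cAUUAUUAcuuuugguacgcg

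The let-7 family, which carries the seed GAGGUAG and is known for restraining growth genes such as RAS and LIN28, was higher for 4 of 6 tested members and lower for none. Over all tested microRNAs 34 of 110 were higher and 1 lower. The median log2 change of the 6 let-7 members was 0.82, against 0.50 over all tested microRNAs. let-7a-5p, the most abundant, had 2366, 2471 and 2368 normalised reads in ATG7-/- cells, against 1510, 1286 and 1535 in wild-type cells. let-7b-5p had 115, 82.7 and 85.7 in ATG7-/- cells, against 36.9, 36.3 and 32.9 in wild-type cells. In both, every ATG7-/- library was above every wild-type library, and the wild-type libraries lay close together. Their log2 changes were 0.74 (SE 0.13, limma adjusted p = 0.0023) and 1.38 (SE 0.16, limma adjusted p = 0.000106). let-7e-5p and let-7f-5p rose by 0.90 (SE 0.13) and 0.89 (SE 0.14), also without overlap. let-7c-5p (0.38, SE 0.13, limma adjusted p = 0.0698) and let-7g-5p (0.30, SE 0.23) did not pass the test, although let-7c-5p differs from let-7b-5p by few bases and its groups did not overlap. With factors from the microRNAs let-7b-5p stayed called at 0.88, let-7a-5p, let-7e-5p and let-7f-5p lost the call at 0.23, 0.39 and 0.38, and let-7c-5p and let-7g-5p turned to -0.13 and -0.19.

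The miR-17-92 cluster, a polycistron that promotes proliferation and is transcribed with MIR17HG, was higher together with members of its paralogs. Of 14 tested arms from the 3 clusters 9 were higher and none lower, against 34 and 1 of the 110 tested microRNAs. The median log2 change of these arms was 0.74, against 0.50. miR-17-5p (chr13:91350618-91350640, plus strand) had 129, 128 and 144 normalised reads in ATG7-/- cells, against 58.0, 47.5 and 51.8 in wild-type cells. All 3 ATG7-/- libraries stood well above all 3 wild-type libraries, and the change was 1.34 (SE 0.17, limma adjusted p = 0.000221). miR-19a-3p had 134, 251 and 226 in ATG7-/- cells, against 97.5, 79.8 and 59.1 in wild-type cells. ATG7-/- replicate 1 was the lowest of its group and still above the wild-type libraries (1.34, SE 0.24, limma adjusted p = 0.00239). miR-19b-3p, which shares the seed GUGCAAA with it, had 442, 677 and 742 in ATG7-/- cells, against 335, 230 and 245 in wild-type cells, with the same low replicate (1.18, SE 0.21). miR-92a-3p, the most abundant arm of the cluster, had 2074, 2102 and 2257 in ATG7-/- cells, against 1486, 1245 and 1463 in wild-type cells. It rose by 0.62 (SE 0.13, limma adjusted p = 0.00864).

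The passenger arms miR-92a-1-5p (0.95, SE 0.21) and miR-18a-3p (1.01, SE 0.24) were higher as well. miR-18a-5p averaged 22.2 ± 9.89 normalised reads in ATG7-/- cells and 16.7 ± 3.73 in wild-type cells, and miR-20a-5p averaged 17.5 ± 7.40 in ATG7-/- cells and 9.50 ± 4.25 in wild-type cells. The groups overlapped for both, and neither was called. The calls of the paralogs that follow were lost when certain single libraries were left out, while the changes kept their direction. miR-25-3p (0.57, SE 0.16) was not called without ATG7-/- replicate 2 or 3 or without wild-type replicate 2 or 3, at 0.46, 0.53, 0.51 and 0.57. miR-93-5p (0.56, SE 0.15) was not called without ATG7-/- replicate 3 (0.54) or wild-type replicate 1 or 2 (0.53 and 0.54). miR-106a-5p, at 16 ± 3.1 normalised reads in ATG7-/- cells and 6.50 ± 1.19 in wild-type cells (1.18, SE 0.33), was not called without ATG7-/- replicate 1 or 3 (1.19 and 1.04) or wild-type replicate 2 or 3 (1.06 and 1.19). miR-18a-3p was not called without wild-type replicate 1 (0.85). With factors from the microRNAs miR-17-5p, miR-19a-3p and miR-19b-3p stayed called at 0.83, 0.83 and 0.67, and the other 6 higher arms lost the call while staying above 0.

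**Figure D2:**
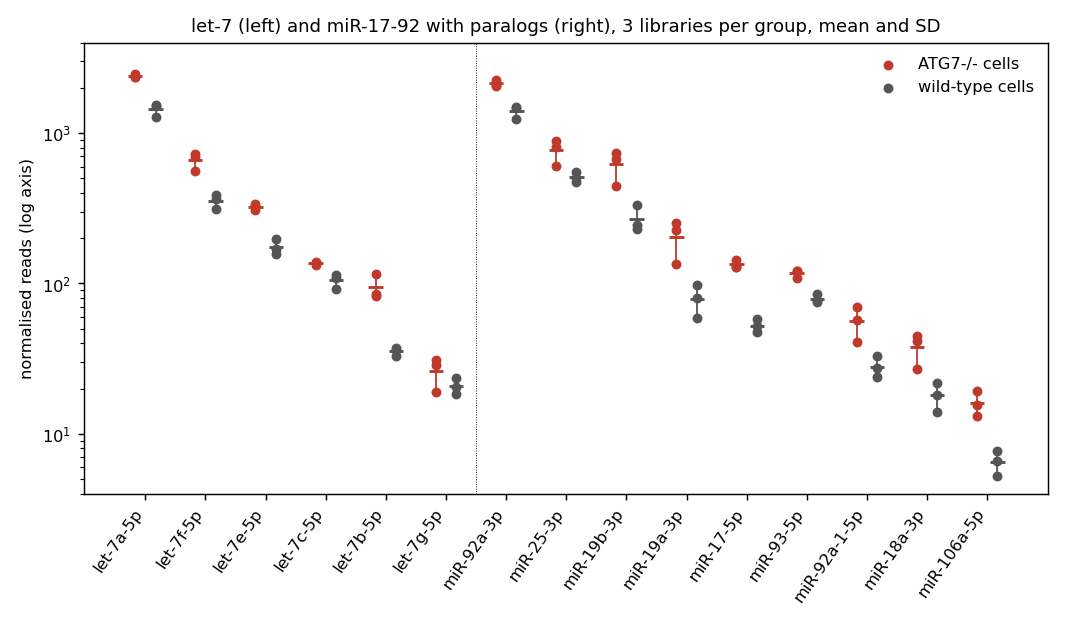
Normalised reads (log10 axis) of the 6 let-7 members and the 9 called members of the miR-17-92 group in each library; for each microRNA the ATG7-/- cells stand left of the wild-type cells with group means and SD. For the called members every ATG7-/- point lies above every wild-type point.

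Grouped by seed, 3 of 4 tested microRNAs with AAAGUGC, both with GUGCAAA and 2 of 3 with AUUGCAC were higher, against 34 of all 110. None of the 2 with AGCAGCA (miR-15b-5p and miR-16-5p, changes of 0.32 and 0.35) was called. The 31 higher microRNAs with a known sequence had a median GC content of 47.8%, against 50% for the 67 others, and a median length of 22 bases in both sets. miR-126-5p had 35.4, 63.1 and 71.4 normalised reads in ATG7-/- cells, against 21.0, 13.9 and 14.6 in wild-type cells. The groups did not overlap and the change was 1.68 (SE 0.26, limma adjusted p = 0.000995). miR-181a-5p is a regulator of lymphocyte signalling, singled out here after its values were seen. It had 13.2, 22.1 and 24.3 normalised reads in ATG7-/- cells, against 0, 3.30 and 0 in wild-type cells. It was called (limma adjusted p = 0.000928). Of the libraries compared, only those of the higher group reached the minimum of the filter, and the size of the change depends on the pseudocount. For these reasons, and because it was picked by its values, that p-value is not taken as support.

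Other listed microRNAs did not pass the test. miR-222-3p, which with miR-221-3p represses the cell-cycle inhibitor p27, had 124, 119 and 189 normalised reads in ATG7-/- cells, against 111, 117 and 123 in wild-type cells (0.27, SE 0.27). miR-221-3p changed by 0.46 (SE 0.29). The groups overlapped for miR-222-3p and also for miR-221-3p. Both differed from ATG12-/- cells, where they averaged lower: the ATG7-/- minus ATG12-/- difference was 3.52 (SE 0.27, limma adjusted p = 4.65e-06) for miR-222-3p and 2.94 (SE 0.29, limma adjusted p = 4.11e-05) for miR-221-3p. None of the 4 tested microRNAs of the HOX clusters was called, among them miR-10a-5p (48.2 ± 16.5 normalised reads in ATG7-/- cells and 35.1 ± 3.10 in wild-type cells). miR-210, the hypoxia microRNA, was under the filter. None of the 10 tested entries that lie on snoRNA genes was called, and their median change was 0.016. The 1 lower call was miR-4485-3p, whose sequence is also that of mitochondrial ribosomal RNA: it had 18.1, 8.19 and 12.8 normalised reads in ATG7-/- cells, against 29.9, 24.4 and 32.9 in wild-type cells. Its groups did not overlap (-1.15, SE 0.26, limma adjusted p = 0.0124), and the call was lost without wild-type replicate 3 (-1.06, limma adjusted p = 0.0527).

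The vault RNAs moved in different directions. They are printed whole because they differ mainly in the middle, and capitals mark the 29 bases at the 5′ end and the 2 at the 3′ end that all 3 share. The sequences are the GENCODE 29 genes on the plus strand of GRCh38: VTRNA1-1 at chr5:140711275-140711373, VTRNA1-2 at chr5:140718925-140719013 and VTRNA1-3 at chr5:140726158-140726246.
VTRNA1-1: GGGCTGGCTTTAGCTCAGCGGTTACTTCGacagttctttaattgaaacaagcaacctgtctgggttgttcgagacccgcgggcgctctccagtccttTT
VTRNA1-2: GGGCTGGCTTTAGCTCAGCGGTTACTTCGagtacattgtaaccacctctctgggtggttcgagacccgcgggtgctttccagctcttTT
VTRNA1-3: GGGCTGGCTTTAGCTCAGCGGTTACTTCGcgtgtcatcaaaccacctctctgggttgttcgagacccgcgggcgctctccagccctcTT

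VTRNA1-1 and VTRNA1-2 are identical at 81.8% of aligned positions, and VTRNA1-3 at 83% and 87.8% with them, in that order. VTRNA1-1, which has 99 bases where the others have 89, was lower: it had 293, 191 and 238 normalised reads in ATG7-/- cells, against 451, 668 and 390 in wild-type cells. VTRNA1-2 was higher, with 423, 711 and 548 in ATG7-/- cells, against 271, 255 and 200 in wild-type cells. Neither pair of groups overlapped. The log2 change was -1.04 (SE 0.21, limma adjusted p = 0.00515) for VTRNA1-1 and 1.19 (SE 0.20, limma adjusted p = 0.00146) for VTRNA1-2, and both calls and directions were kept under all 19 alternatives. VTRNA1-3 had 311, 456 and 321 in ATG7-/- cells, against 359, 377 and 250 in wild-type cells. Those groups overlapped, and the change of 0.14 (SE 0.21) was not called. The sum of the class did not differ beyond its spread, at 0.122% ± 0.021 of reads in ATG7-/- cells and 0.106% ± 0.0238 in wild-type cells (exact permutation p = 0.5). How reads that match more than 1 vault RNA were counted is not given in the sources used here. VTRNA1-2 was also higher than in ATG12-/- cells (1.92, SE 0.20, limma adjusted p = 4.51e-05), while VTRNA1-1 did not differ from them past the threshold (-0.46, SE 0.21, limma adjusted p = 0.139).

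**Figure D3:**
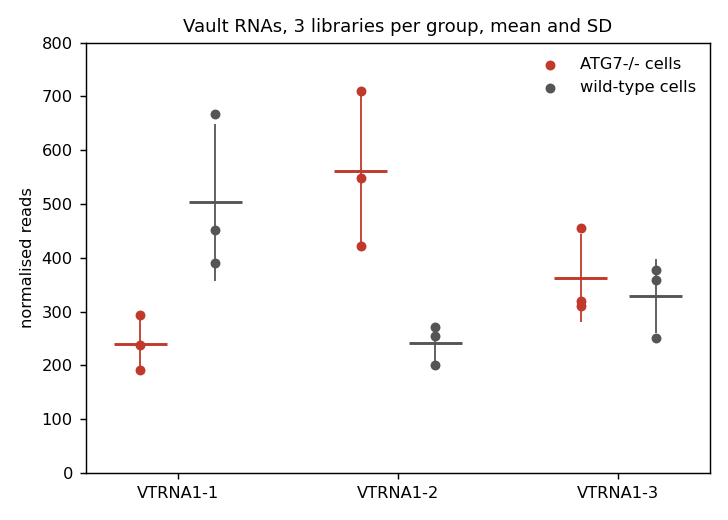
Normalised reads of the 3 vault RNAs in each library, ATG7-/- cells left of wild-type cells, with group means and SD. VTRNA1-1 is lower in all 3 ATG7-/- libraries and VTRNA1-2 higher in all 3, and VTRNA1-3 overlaps.

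Of the other non-coding RNAs with a role of their own, few passed the test. The 4 Y RNAs, which bind the Ro60 protein and take part in RNA quality control and DNA replication, had changes of 0.16 to 0.41 and none was called. RNY4 had 3272, 4306 and 3073 normalised reads in ATG7-/- cells, against 2769, 2921 and 2266 in wild-type cells, without overlap (0.41, SE 0.17, limma adjusted p = 0.108). Scaled to library totals, RNY3 and RNY4 were called at 0.37 and 0.50, and with factors from the microRNAs all 4 were below 0, from -0.36 to -0.10. As a share of reads Y RNAs took 4.18% ± 0.508 in ATG7-/- cells and 3.28% ± 0.284 in wild-type cells, without overlap (exact permutation p = 0.1). None of the 5 spliceosomal RNAs or U7, which guides histone messenger RNA processing, was called. U4 and U7 averaged 717 ± 20.7 and 616 ± 55.6 in ATG7-/- cells, against 814 ± 59.0 and 779 ± 9.76 in wild-type cells. The telomerase RNA averaged 37.9 ± 3.55 in ATG7-/- cells and 54.3 ± 13.2 in wild-type cells (-0.48, SE 0.20, limma adjusted p = 0.114). With factors from the microRNAs U2, U4, U7 and the telomerase RNA were called lower, at -0.64, -0.69, -0.85 and -0.98, and U1, U5 and U6 were not called.

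Of 457 tRNA genes tested, 29 were higher and 55 lower, against 8.44% and 8.32% over all features, so the share of higher genes was below that of all features and the share of lower genes above it. Their median change was -0.17 (range -2.39 to 1.65), against -0.09 over all features. Copies of 1 tRNA share most of their sequence and often hold nearly the same reads, so genes of 1 family are not independent. Genes were named for the largest change among those of an anticodon, with a few others beside them, and other copies of the same family can differ from them. tRNA took 27.0% ± 3.92 of reads in ATG7-/- cells and 24.0% ± 2.03 in wild-type cells, with overlap (exact permutation p = 0.3). The count of higher genes was 18 without ATG7-/- replicate 3 and 19, 16 and 11 without wild-type replicates 1, 2 and 3. The count of lower genes was 36, 27 and 34 without those wild-type replicates in turn, 35 with library totals and 310 with factors from the microRNAs.

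Lysine tRNAs with the anticodon CTT were higher. Of 16 tested 9 were called higher and 1 lower, against 29 and 55 of all 457 tRNA genes, and the median change of the 16 was 0.99. tRNA-Lys-CTT-11-1 had 152, 440 and 381 normalised reads in ATG7-/- cells, against 108, 103 and 72.3 in wild-type cells. tRNA-Lys-CTT-2-1, of the family in which all 5 tested copies were higher, had 2579, 9458 and 4617 in ATG7-/- cells, against 1949, 2147 and 1543 in wild-type cells. In both, ATG7-/- replicate 2 was the highest and replicate 1 the lowest of its group, and the groups did not overlap. The changes were 1.65 (SE 0.32, limma adjusted p = 0.0037) and 1.37 (SE 0.34, limma adjusted p = 0.0157). tRNA-Lys-CTT-1-1, an abundant copy of another family, averaged 4674 ± 1324 in ATG7-/- cells and 3290 ± 408 in wild-type cells and was not called (0.48, SE 0.19, limma adjusted p = 0.0988). None of the 14 tested lysine tRNAs with the anticodon TTT was called, and their median change was -0.08. Summed over lysine, the values were 27821, 62129 and 42579 in ATG7-/- cells, against 22376, 24088 and 19117 in wild-type cells. Without wild-type replicate 3 only 3 Lys-CTT genes were called, and tRNA-Lys-CTT-2-1 was not (1.24, limma adjusted p = 0.075). tRNA-Lys-CTT-5-1 was the lower one, at 27.2 ± 12.8 in ATG7-/- cells and 51.3 ± 9.28 in wild-type cells (-0.98, SE 0.27). It lost the call without ATG7-/- replicate 1 (-0.65) or 3 (-0.97), without wild-type replicate 1, 2 or 3 (-1.05, -0.84 and -1.05), and with library totals (-0.89).

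Serine tRNAs with AGA were higher for 7 of 10 tested genes, against 29 of all 457 tRNA genes, with a median change of 0.68. None of 8 with GCT was called (median -0.18). tRNA-Ser-AGA-2-1 had 162, 216 and 246 normalised reads in ATG7-/- cells, against 126, 129 and 124 in wild-type cells. All ATG7-/- libraries were above the narrow wild-type range (0.69, SE 0.16, limma adjusted p = 0.0127). Of the 7 calls, 4 were made without ATG7-/- replicate 3 and 1 without wild-type replicate 3. tRNA-Ser-AGA-4-1, which rose by 0.82 (SE 0.20), lost its call in those same cases, at 0.61 and 0.70. With isodecoders (copies of 1 tRNA sequence) counted once, an alternative chosen after seeing the data, 3 Ser-AGA entries and 5 Lys-CTT entries were called higher. tRNA-Leu-CAA-3-1 rose by 0.61 (SE 0.14), and was not called without wild-type replicate 3 (0.48). tRNA-Gln-CTG-6-1 rose by 1.13 (SE 0.32). Its ATG7-/- values of 61.8, 151 and 86.4 spread widely, against 52.9, 42.2 and 32.9 in wild-type cells, and without ATG7-/- replicate 2 or 3 or wild-type replicate 2 or 3 the change was 0.79, 1.19, 1.14 and 0.96 with no call.

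Aspartate, asparagine and alanine tRNAs gave most of the lower calls. Of 13 tested tRNA-Asp-GTC genes 8 were lower and none had a change above 0, the groups did not overlap for 12, and the median change was -0.58. Over all 457 tRNA genes 55 were lower, and the groups did not overlap for 133 that fell. tRNA-Asp-GTC-2-11 (chr17:8222238-8222309), the copy with the largest change among the 11 tested of its family, whose median was -0.58, had 92.2, 137 and 126 normalised reads in ATG7-/- cells, against 315, 331 and 317 in wild-type cells. It fell by 1.45 on the log2 scale (SE 0.16, limma adjusted p = 0.000106). Summed over aspartate, ATG7-/- cells had 3535 ± 674 and wild-type cells 5707 ± 499, without overlap (exact permutation p = 0.1). The count of 8 became 4 without ATG7-/- replicate 1, 5, 3 and 5 without wild-type replicates 1, 2 and 3, and 4 with library totals. With isodecoders counted once it was 3.

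tRNA-Asn-GTT-8-1 (chr1:149740248-149740321) had 73.3, 85.2 and 92.1 normalised reads in ATG7-/- cells, against 228, 292 and 258 in wild-type cells. The highest ATG7-/- library was far under the lowest wild-type library, and the change was -1.62 (SE 0.16, limma adjusted p = 5.33e-05). Of 23 tested Asn-GTT genes 7 were lower and none higher, against 55 lower and 29 higher of all 457 tRNA genes. The abundant Asn-GTT copies were not among the 7: tRNA-Asn-GTT-2-1 averaged 856 ± 57.8 in ATG7-/- cells and 732 ± 62.9 in wild-type cells (0.23, SE 0.14, not called). The sum over asparagine was 9171 ± 611 in ATG7-/- cells and 9198 ± 665 in wild-type cells. Of 34 tested Ala-AGC genes 15 were lower and none higher. Summed over alanine, ATG7-/- cells had 13349 ± 692 and wild-type cells 13945 ± 466, with overlap (exact permutation p = 0.3). tRNA-Ala-AGC-12-3 had 26.4, 27.8 and 47.1 in ATG7-/- cells, against 80.9, 89.7 and 84.7 in wild-type cells (-1.36, SE 0.21, limma adjusted p = 0.000928), and none of the 9 Ala-TGC genes was called. tRNA-Arg-ACG-2-2 had 199, 210 and 256 in ATG7-/- cells, against 440, 537 and 390 in wild-type cells (-1.03, SE 0.15, limma adjusted p = 0.000786), the only lower call among 7 Arg-ACG genes tested; the median change of the 4 copies of its own family was -0.35.

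**Figure D4:**
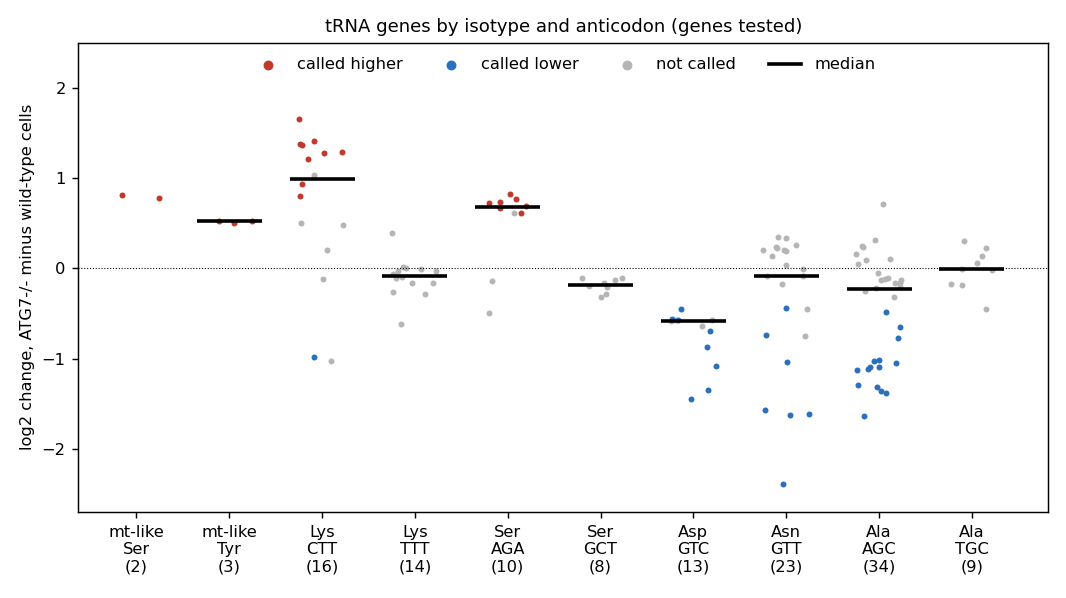
Log2 change of each tested tRNA gene in ATG7-/- cells relative to wild-type cells, by anticodon group ("mt-like": entries whose names begin with nm or nmt); red and blue points were called higher and lower by limma, grey points were not called, and bars are medians of groups of 3 or more. Lys-CTT and Ser-AGA genes lie mostly above 0 and Asp-GTC genes all below 0. Asn-GTT and Ala-AGC genes reach from 0.34 and 0.71 to below -1, with 10 of 23 and 8 of 34 above 0.

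Of 8 tested entries for nuclear copies of mitochondrial tRNAs, 5 were called higher and none lower, against 8.44% higher over all features. These were all 3 tyrosine entries, at 0.50 to 0.52, and both serine entries, at 0.77 to 0.81. nm-tRNA-Tyr-GTA-chr21-2 had 964, 956 and 821 normalised reads in ATG7-/- cells, against 622, 618 and 668 in wild-type cells, without overlap (0.52, SE 0.14, limma adjusted p = 0.0209). It was not called without wild-type replicate 1 or 2 (0.50 in both cases). nmt-tRNA-Ser-TGA-1-1, at 45.4 ± 9.21 in ATG7-/- cells and 25.6 ± 6.32 in wild-type cells (0.81, SE 0.22), was not called without ATG7-/- replicate 1 (0.65) or wild-type replicate 1 or 2 (0.74 and 0.69). With factors from the microRNAs these changes were 0.0075 and 0.31. The glutamine entry nmt-tRNA-Gln-TTG-9-1 (0.73) and the 2 leucine entries (-0.62 and -0.041) were not called. Reads of the mitochondrial tRNAs themselves cannot be told apart from these entries.

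Few snoRNAs passed the test in ATG7-/- cells. Of 150 C/D box snoRNAs 3 were higher and 9 lower (median -0.17), of 98 H/ACA box snoRNAs 5 were higher and 2 lower (median -0.043), and of 24 scaRNAs none was higher and 3 were lower (median 0.027). For both snoRNA classes these shares are below those over all features. These counts depend on the scaling: with factors from the microRNAs 120 C/D box and 60 H/ACA box snoRNAs were lower and none higher, with medians of -0.68 and -0.56, and with TMM over all features 16 C/D box snoRNAs were lower. The counts moved when 1 library was left out. The 9 lower C/D box calls became 33 without ATG7-/- replicate 1, 5 and 3 without replicates 2 and 3, and 4, 3 and 2 without wild-type replicates 1, 2 and 3. The 5 higher H/ACA box calls became 1, 2 and 7 without ATG7-/- replicates 1, 2 and 3, and 1, 2 and 1 without the wild-type ones. The 2 lower H/ACA box calls are SNORA11D and SNORA11E, names with the same change (-0.85, SE 0.26, limma adjusted p = 0.038). Both lost the call with library totals, with no filter and with DESeq2. They also lost it without ATG7-/- replicate 3 or any 1 wild-type replicate. C/D box snoRNAs took 56.2% ± 3.64 of reads in ATG7-/- cells and 61.4% ± 2.53 in wild-type cells (exact permutation p = 0.2), and H/ACA box snoRNAs 6.57% ± 0.723 in ATG7-/- cells and 6.16% ± 0.290 in wild-type cells (exact permutation p = 0.4), with overlap in both.

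ACA31 (SNORA31, in an intron of TPT1, chr13:45337480-45337609, minus strand) had 1117, 877 and 885 normalised reads in ATG7-/- cells, against 555, 532 and 532 in wild-type cells. The lowest ATG7-/- library was far above the highest wild-type library. ACA31 rose by 0.82 (SE 0.15, limma adjusted p = 0.00245), and the call was lost only with factors from the microRNAs (0.31). U52 (SNORD52, in C6orf48, chr6:31837076-31837139) had 2767, 2453 and 2131 in ATG7-/- cells, against 4219, 4029 and 3450 in wild-type cells. SNORD121B (in UBAP2) had 414, 154 and 313 in ATG7-/- cells, against 636, 606 and 541 in wild-type cells. Neither pair of groups overlapped, and ATG7-/- replicate 2 was the lowest for SNORD121B. U52 fell by 0.67 (SE 0.15, limma adjusted p = 0.00976) and SNORD121B by 1.13 (SE 0.26, limma adjusted p = 0.0127), and both kept the call under all 19 alternatives.

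The other snoRNA calls that follow each failed under some alternative. The most abundant was U44 (SNORD44, in GAS5), with 15802, 14679 and 10846 normalised reads in ATG7-/- cells, against 21463, 19128 and 21670 in wild-type cells (-0.61, SE 0.16, limma adjusted p = 0.0199). It lost the call without wild-type replicate 1 or 3 (-0.58 in both cases), in the fit of only the 6 libraries compared (limma adjusted p = 0.0516) and with no filter (limma adjusted p = 0.105). It was the 1 called member of 10 snoRNAs hosted by GAS5, a growth-arrest transcript, whose median change was -0.45. U82 (in NCL, -0.66, SE 0.19) was not called without ATG7-/- replicate 2 or 3 or any 1 of the 3 wild-type replicates, at -0.69 to -0.52. ACA39 (SNORA71E, in SNHG11) rose by 0.71 (SE 0.19), and was not called without ATG7-/- replicate 1 or 2 (0.58 and 0.59) or wild-type replicate 1 or 3 (0.71 and 0.62). HBII-239 (SNORD71, in AP1G1) rose by 0.63 (SE 0.18), and was not called without ATG7-/- replicate 1 or 2 (0.50 and 0.60) or wild-type replicate 2 or 3 (0.51 and 0.64).

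ACA27 and U102 lie in introns of the same gene, RPL21, and both were higher. ACA27 had 507, 477 and 376 normalised reads in ATG7-/- cells, against 317, 332 and 322 in wild-type cells (0.47, SE 0.14). U102 had 4554, 3372 and 3675 in ATG7-/- cells, against 2814, 2508 and 2709 in wild-type cells (0.52, SE 0.14). The groups did not overlap for either, with ATG7-/- replicate 1 the highest in both. U102 lost the call without wild-type replicate 1, 2 or 3 (0.56, 0.47 and 0.53). ACA27 lost it without those (0.46, 0.49 and 0.47) and without ATG7-/- replicate 1 or 2 (0.39 and 0.43). Both lost it in the fit of only the 6 libraries compared (limma adjusted p = 0.0627 in both cases). HBII-99B (SNORD12B, in ZFAS1), U71b (in SNHG17) and ACA67B (in ODC1) rose by 0.48, 0.49 and 0.48. HBII-99B and U71b lost the call without ATG7-/- replicate 1 or 2 and ACA67B without replicate 1 or 3, each also without any 1 of the wild-type replicates, at 0.38 to 0.51, 0.36 to 0.55 and 0.36 to 0.53. All 3 also lost it in the fit of only the 6 libraries compared (limma adjusted p = 0.104, 0.0715 and 0.0609). With factors from the microRNAs ACA27, HBII-99B, U71b and ACA67B were just below 0.

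HBII-382 and mgU2-25/61 are 2 names placed at 1 scaRNA gene, SCARNA2, which guides changes of the U2 spliceosomal RNA. mgU2-25/61 had 229, 158 and 169 normalised reads in ATG7-/- cells, against 279, 247 and 304 in wild-type cells, without overlap (-0.59, SE 0.16, limma adjusted p = 0.0216). HBII-382 changed by -0.63 (SE 0.17). Both lost the call without ATG7-/- replicate 2 or 3 or wild-type replicate 1 or 3, at -0.58 to -0.48 and -0.65 to -0.52. The third scaRNA called, U88 (SCARNA6), lies in an intron of ATG16L1, itself a gene of the LC3 conjugation pathway, and is singled out for that. It had 7.41, 16.4 and 11.4 in ATG7-/- cells, against 27.4, 24.4 and 20.4 in wild-type cells (-1.03, SE 0.29, limma adjusted p = 0.026). The call was lost without ATG7-/- replicate 1 or 3 (-0.76 and -1.04) and without wild-type replicate 1, 2 or 3 (-0.94, -1.02 and -1.14). U87 (SCARNA5), in the same host gene, had 32.1, 30.3 and 25.7 in ATG7-/- cells, against 31.2, 30.3 and 22.6 in wild-type cells, and was not called.

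Among 17 entries for snoRNAs of ribosomal precursor processing there was no call, with a median change of -0.19; entries for U3 are several copies. U3 averaged 12564 ± 2108 normalised reads in ATG7-/- cells and 13993 ± 1198 in wild-type cells, and U8, required for the large subunit, 6935 ± 274 in ATG7-/- cells and 6783 ± 301 in wild-type cells. U13 had 8040, 5258 and 5482 in ATG7-/- cells, against 7813, 7859 and 7834 in wild-type cells. It was not called in the main fit (-0.35, limma adjusted p = 0.144), but was without ATG7-/- replicate 1 (-0.55, limma adjusted p = 0.00678). With factors from the microRNAs U13 and U3 were both called lower, at -0.86 and -0.68 (limma adjusted p = 0.0016 and 0.0031). U22 had 170, 169 and 104 in ATG7-/- cells, against 227, 278 and 197 in wild-type cells (-0.68, SE 0.26, limma adjusted p = 0.0849). Its groups did not overlap, and it was called lower in the fit of only the 6 libraries compared (limma adjusted p = 0.0369) and with factors from the microRNAs (-1.19). Of 57 snoRNAs in introns of ribosomal protein genes 2 were higher and 2 lower, and none of the 8 hosted by SNHG1 or the 4 hosted by RPL13A was called.

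The changes in ATG7-/- cells were then set against ATG12-/- cells by the direct difference between the knockouts. The wild-type mean cancels from that difference, but the wild-type libraries still share in the filter and in the estimate of spread. Of 853 features 123 (14.4%) were higher in ATG7-/- than in ATG12-/- cells and 48 (5.63%) lower. Without ATG7-/- replicate 2 the counts were 62 and 21, and with library totals 69 and 77. C/D box snoRNAs accounted for 53 of the higher ones and 1 of the lower, microRNAs for 19 and 4, and tRNA genes for 25 and 43. Relative to the wild-type libraries, which both comparisons share, 64 features (7.5%) were higher in ATG12-/- cells and 155 (18.2%) lower. On that shared base, the median change of the C/D box snoRNAs was -0.17 in ATG7-/- cells and -0.50 in ATG12-/- cells, and that of microRNAs 0.50 in ATG7-/- cells and 0.20 in ATG12-/- cells. Among the named RNAs, miR-17-5p, miR-19a-3p, miR-19b-3p, miR-126-5p and let-7e-5p were higher in ATG7-/- than in ATG12-/- cells, by 0.58 (SE 0.17), 1.27 (SE 0.24), 0.83 (SE 0.21), 1.27 (SE 0.26) and 0.73 (SE 0.13). let-7b-5p was lower (-0.65, SE 0.16). The lower tRNA genes named for their large changes in 4 anticodon groups did not differ between the knockouts past the threshold: the difference was 0.20 (SE 0.16) for tRNA-Asp-GTC-2-11, -0.20 (SE 0.16) for tRNA-Asn-GTT-8-1, -0.43 (SE 0.21) for tRNA-Ala-AGC-12-3 and -0.20 (SE 0.15) for tRNA-Arg-ACG-2-2. Other genes of these groups did. Lower than in ATG12-/- cells were 1 of 13 Asp-GTC, 3 of 23 Asn-GTT and 6 of 34 Ala-AGC genes, against 43 of all 457 tRNA genes. Another 2 Ala-AGC genes were higher, and none of 7 Arg-ACG genes differed.

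The change in cells was also set against the ATG7-/- minus wild-type change in vesicles, in 1 fit over all 18 libraries with the interaction as the test. The interaction was called (limma adjusted p under 0.05) above 0 for 259 features (30.4%) and below 0 for 229 (26.8%). These counts depend on the scaling: they were 324 and 72 with library totals, where the median interaction over all features was 0.40 against -0.05, and 200 and 337 with factors from the microRNAs, where it was -0.43. C/D and H/ACA box snoRNAs made up much of the first set, with 117 of 150 and 87 of 98, and tRNA genes much of the second, with 220 of 457. C/D box snoRNAs had a median change of -0.17 in cells and -1.46 in vesicles. H/ACA box snoRNAs had medians of -0.043 in cells and -1.90 in vesicles, and tRNA genes -0.17 in cells and 0.46 in vesicles. In vesicles 276 features (32.4%) were higher and 282 (33.1%) lower in ATG7-/- than in wild type. The 4 H/ACA box snoRNAs named for the size of their fall in vesicles were not called in cells in the main fit. With factors from the microRNAs ACA16 and ACA62 were called lower in cells, at -0.68 and -0.67 (limma adjusted p = 0.0052 and 0.0079). U72 and ACA28 were not called in that setting either. U72 had 1223, 844 and 592 normalised reads in ATG7-/- cells, against 696, 868 and 845 in wild-type cells, with overlap (0.09, SE 0.22). Its vesicle change, by which it was chosen, was -4.71 (SE 0.22). ACA16, ACA62 and ACA28 changed by -0.17 (SE 0.17), -0.16 (SE 0.15) and 0.25 (SE 0.15) in cells and by -4.59, -4.58 and -4.52 in vesicles.

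**Figure D5:**
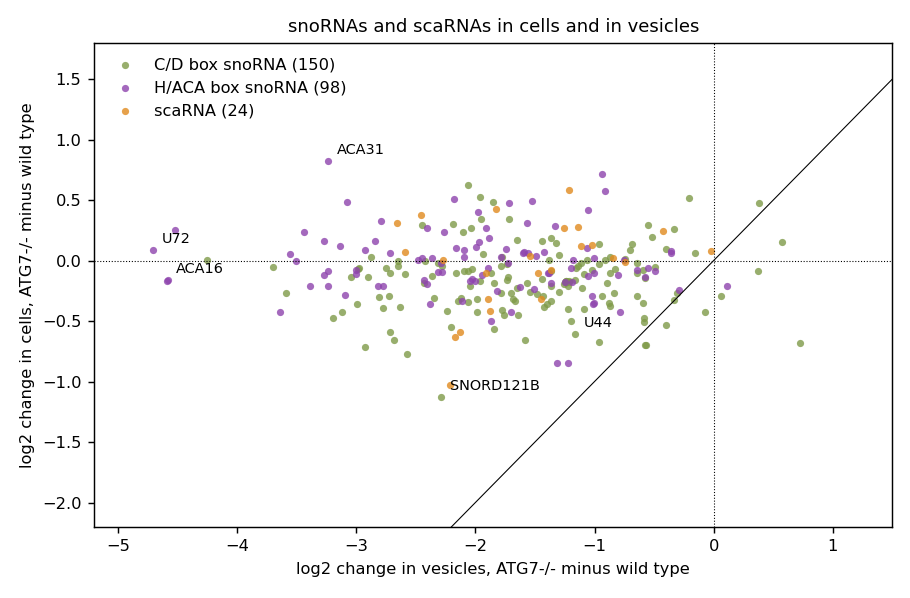
ATG7-/- minus wild-type log2 change in vesicles (x axis) and in cells (y axis) for each tested snoRNA and scaRNA; both axes are in log2 units, dotted lines mark 0 and the solid line marks an equal change. Points spread down to below -4 along the vesicle axis and stay near 0 along the cell axis.

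The changes of the let-7 and miR-17-92 microRNAs differed between cells and vesicles for some members. In vesicles miR-17-5p, miR-19a-3p and miR-19b-3p changed by 0.06 (SE 0.20), -0.17 (SE 0.34) and -0.49 (SE 0.23), and their interactions were 1.28 (SE 0.28), 1.51 (SE 0.48) and 1.67 (SE 0.33), each with a limma adjusted p under 0.05. miR-92a-3p and let-7b-5p, by contrast, were higher in vesicles as well, by 0.98 (SE 0.15) and 1.30 (SE 0.26), and their interactions of -0.36 (SE 0.21) and 0.08 (SE 0.37) did not pass the test. VTRNA1-1 was not called in vesicles (0.31, SE 0.18), with an interaction of -1.35 (SE 0.26, limma adjusted p = 0.000192). VTRNA1-2 was higher in vesicles by 0.73 (SE 0.18), and its interaction of 0.46 (SE 0.25) did not pass the test.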

How the data were processed

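Small RNA was sequenced from cells and vesicles as single 50 bp reads after a SMARTer small RNA library kit with 12 PCR cycles, per the labels' protocols. Reads were handled with the builds GRCh38 and hg38 and with Bowtie2 2.3, DESeq2, bedtools and cutadapt 2.3, as named in the submitters' processing notes; the settings, and how reads with several matches were counted, are not given in the sources used here. The deposited values are a scaled signal: in each library 100% of values were whole multiples of 1 step, within a tolerance of 1e-06, so whole reads were recovered.

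The main test was limma 3.58.1 in R 4.3.3, with an intensity trend, on log2 (value + pseudocount 1) over the 9 cell libraries, or all 18 for the interaction. It was two-sided with Benjamini-Hochberg adjustment over all features that reached 10 in at least 3 libraries. A count test on the recovered reads, edgeR 4.0.16's quasi-likelihood test, called 77 features higher and 67 lower, and DESeq2 1.42.0 called 78 and 74. Shares were compared with exact permutation tests. Simulated data for the comparison of ATG7-/- with wild-type cells held 849 features. In them limma recovered 96% of changes of 1 and 100% of changes of 2 on the log2 scale, and called 5 of 649 unchanged features. The simulation gave all groups the same spread and took the library factors as known. It thus does not cover the wider spread of the ATG7-/- libraries or the dependence on scaling. Counting error alone understates the spread, since PCR copies are not independent molecules.

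Named features are, per class and direction, the up to 5 calls of largest change whose groups do not overlap and whose higher group averages at least 50, with 1 per tRNA anticodon, plus a set named whatever their change (the snRNAs, Y, vault and telomerase RNAs, U3, U8, U13, U22 and single microRNAs and snoRNAs) and the let-7 and miR-17-92 members. Others in the text were singled out after their values were seen. The classes, members and lists were chosen with earlier results of these data known. The labels do not say whether replicate numbers pair the samples. The deviations of same-numbered ATG7-/- and wild-type libraries correlated at -0.25, -0.057 and -0.098, and those of differently numbered ones at -0.17 to 0.258. With 3 libraries per group these values cannot settle whether the numbers pair them. One snoRNA that the rule names is not reported here. tRNA and snoRNA sequences were not used here. Alternatives tried were other scalings, pseudocounts, filters and tools, a replicate block, leaving out each library, and counting tRNA copies once.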

Additional observations from a re-analysis of the deposited data

Results flagged for a closer look

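Named RNAs that were called in ATG7-/- cells are listed here where their change differed, by limma's test of that difference, from that of another group. Between the knockouts, the ATG7-/- minus ATG12-/- difference in cells was 1.92 on the log2 scale for VTRNA1-2. For microRNAs it was 1.27 for miR-126-5p, 1.27 for miR-19a-3p, 0.83 for miR-19b-3p, 0.73 for let-7e-5p, 0.58 for miR-17-5p, 0.46 for miR-92a-3p and -0.65 for let-7b-5p. For snoRNAs it was 1.22 for ACA31, 1.18 for ACA39, 1.05 for HBII-99B, 0.97 for ACA27, 0.89 for U102 and 0.68 for U71b. tRNA-Gln-CTG-6-1 and nm-tRNA-Tyr-GTA-chr21-2 differed by 1.00 and 0.65.

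The change in cells minus the change in vesicles was above 0 for most of the snoRNAs and scaRNAs concerned. It was 4.05 for ACA31, 3.56 for ACA67B, 2.69 for HBII-239, 2.19 for ACA27, 2.02 for U71b and 1.65 for ACA39. It was 1.54 for HBII-382 and for mgU2-25/61, 0.92 for U82, 0.73 for U102 and 0.56 for U44. Among microRNAs it was 1.67 for miR-19b-3p, 1.51 for miR-19a-3p, 1.28 for miR-17-5p and 0.75 for let-7f-5p.

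Among tRNA entries it was 1.17 for nm-tRNA-Tyr-GTA-chr21-2 and 1.12 for tRNA-Lys-CTT-11-1. It was -1.59 for tRNA-Asp-GTC-2-11, -1.24 for tRNA-Arg-ACG-2-2, -1.13 for tRNA-Asn-GTT-8-1, -1.11 for tRNA-Ala-AGC-12-3 and -0.88 for tRNA-Lys-CTT-5-1. VTRNA1-1 stood at -1.35.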

How the results depend on the processing

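Of 41 named RNAs that were called, 14 kept call and direction under all 19 alternatives: let-7b-5p, miR-126-5p, miR-17-5p, miR-19a-3p, miR-19b-3p, SNORD121B, U52, VTRNA1-1, VTRNA1-2, tRNA-Ala-AGC-12-3, tRNA-Arg-ACG-2-2, tRNA-Asn-GTT-8-1, tRNA-Asp-GTC-2-11 and tRNA-Lys-CTT-11-1. Scaling mattered most. TMM factors from microRNAs moved the median of all features to -0.60 (-0.09 as reported) and gave 20 higher and 517 lower features, 10 and 12 microRNAs, and 9 and 310 tRNA genes; 3.72% of calls were then higher, against 50.3%. With library totals 62.8% were higher (81 and 48 features) and 35 tRNA genes lower. ATG7-/- exceeded ATG12-/- cells for 69, 64 and 31 features and fell below for 77, 108 and 120 with library totals, TMM over all features and TMM from microRNAs.

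A minimum of 50 normalised reads tested 670 features and left 47 lower calls, 18 higher microRNAs and 0 lower ones; with no filter 4 microRNAs were lower. Counting isodecoders once, an alternative chosen after seeing the data, made the difference in microRNA share 0.787 percentage points against 0.617. The same numbers of calls, 72 and 71, came with a pseudocount of 0.5 and with same-read copies counted once. A replicate block, although it is not known whether the numbers pair the libraries, gave 64 higher and 59 lower. Of the RNAs described above, ACA27, HBII-99B, U71b and ACA67B then lost their calls (limma adjusted p = 0.0621, 0.056, 0.0516 and 0.0709). U22 gained a call (limma adjusted p = 0.0291).

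Leaving out 1 library gave 40 to 68 higher and 34 to 90 lower features, 62 to 158 and 21 to 65 against ATG12-/- cells, 21 to 30 and 0 to 2 microRNAs, and 11 to 35 and 27 to 61 tRNA genes. The group then rests on the remaining 2 libraries.

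Directions that turned belonged to uncalled or weakly called RNAs. With TMM from microRNAs these were ACA27 (-0.039), ACA28 (-0.26), ACA67B (-0.027), HBII-99B (-0.037), let-7c-5p (-0.13), let-7g-5p (-0.19), miR-10a-5p (-0.11), miR-18a-5p (-0.16), miR-196a-5p (-0.27), miR-221-3p (-0.029), miR-222-3p (-0.24), RNY1 (-0.27), RNY3 (-0.24), RNY4 (-0.10), RNY5 (-0.36), tRNA-Asn-GTT-2-1 (-0.29), tRNA-Lys-CTT-1-1 (-0.036), U1 (-0.41), U5 (-0.42), U6 (-0.40), U71b (-0.021), U72 (-0.43), U8 (-0.48), U87 (-0.42) and VTRNA1-3 (-0.37). miR-93-3p (-0.06 as reported) turned to 0.024 with library totals. Leaving out 1 library turned 8 of them, with ranges of -0.28 to 0.17 for miR-93-3p, -0.019 to 0.33 for RNY5, -0.031 to 0.17 for U5, -0.051 to 0.25 for U6, -0.18 to 0.35 for U72, -0.0018 to 0.062 for U8, -0.071 to 0.16 for U87 and -0.043 to 0.25 for VTRNA1-3. The cause of these turns was not tested. Depth limits RNAs under 10 normalised reads, most of the 1425 microRNA entries, which were not tested.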
